A study of Arabidopsis thaliana with 10 samples.

Results

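The 6 expansin genes studied here (EXPA8, EXPA15, EXPA16, EXPA18, EXPB3 and EXLA1) and EXGT-A3, a gene for a xyloglucan endotransglucosylase/hydrolase also known as XTH27, were followed in whole shoots of Arabidopsis thaliana over 24 hr of dexamethasone (DEX). The 7 genes were found by symbol in the probe table, each with 1 probe set, out of 13356 genes named by a probe set of 1 gene. They had been picked with their signals on these same arrays known, so their values are given as a description and without a test. All plants carried the shr-2 mutation and the transgene pSHR:SHR-GR, in which SHORT-ROOT, a transcription factor of the GRAS family, is fused to the glucocorticoid receptor and enters the nucleus when DEX is given. The SHORT-ROOT promoter drives the fusion, and whole shoots hold many cell types besides those in which that promoter is active. Shoots labelled control at 0 hr were compared with shoots given 10 µM DEX for 3, 6, 12 or 24 hr. Each time had 2 biological replicates, which makes 10 ATH1 arrays. DEX was applied at 10 days after germination, or at 9 days for the 24 hr treatment. No mock-treated shoots of the DEX times and no plants without the transgene were analysed here, so DEX, nuclear SHORT-ROOT, time of day and handling cannot be told apart in any comparison with 0 hr.

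Expansins are wall proteins that let cellulose and matrix polymers slip past each other at acid pH without cutting them, and they are known for their part in cell enlargement. Alpha-expansins (EXPA) and beta-expansins (EXPB) form the main branches of the family, while the expansin-like A proteins (EXLA) are grouped with them by sequence and have no known loosening activity. Xyloglucan endotransglucosylase/hydrolases (XTH) cut xyloglucan, the hemicellulose that coats cellulose in growing walls, and can join the cut end to another xyloglucan chain.

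The values are MAS5 signals, which measure the brightness of a probe set on a linear scale. Signals of different probe sets cannot be set against each other as levels, so each gene was compared only with itself across times. Median signals per array ran from 181.5 to 191.5. The lowest were those of the 3 hr arrays, at 184.4 and 181.5, and all other arrays lay between 188.3 and 191.5. Across probe sets, the correlation between the 2 replicates of a time ran from 0.986 to 0.991. Replicate 1 at 12 hr correlated with replicate 2 at 24 hr at 0.991, against 0.990 with its own partner, so the last 2 times were not cleanly separated across all probe sets. The 0 hr arrays were hardly closer to each other, at 0.98634, than to later times. Replicate 1 of 0 hr correlated at 0.98628 with replicate 1 of 12 hr, and replicate 2 of 0 hr at 0.98611 with replicate 2 of 24 hr. In whole shoots a lower signal from fewer cells of a type and one from less RNA per cell cannot be told apart. Of 10 mesophyll markers 1 was measured, RCA, the activase of Rubisco, with 22977 and 25490 at 0 hr, 24444 and 23879 at 3 hr, and 19141 and 18805 at 6 hr. Of 4 guard cell markers 1 was measured, the transcription factor gene FAMA, with 292 and 243 at 0 hr, 389 and 313 at 3 hr, and 238 and 262 at 6 hr. Both RCA arrays at 6 hr thus lay below both controls (log2 difference -0.35) and both FAMA arrays at 3 hr lay above them (0.37); neither gene passed the test after adjustment, each had an unadjusted p below 0.05, and the part of these cell types in the results at 3 and 6 hr was not tested. CLV3, the gene for a signalling peptide of the shoot meristem, lay near background at 2.38 to 17.5.

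The 7 genes fell into 2 directions. EXPA8, EXPB3, EXPA15 and EXPA18 had lower signals and EXPA16, EXLA1 and EXGT-A3 had higher signals on both arrays than on both control arrays at 3 hr and again at 6 hr. At 3 hr the arrays of 7 of the 7 genes did not overlap with the controls, as for 49.0% of all 22746 probe sets tested, 21.7% higher and 27.3% lower. At 6 hr this held for 7 of the 7 genes and 53.0% of all probe sets, 21.2% higher and 31.8% lower. At 12 hr it held for 6 genes, all but EXPA8, and 45.7% of all probe sets, 19.3% higher and 26.4% lower. At 24 hr it held for 4 genes, with EXPA15, EXPA18 and EXPB3 lower and EXGT-A3 higher, and for 42.6% of all probe sets, 18.6% higher and 24.0% lower. Between successive times, 6 of the 7 genes stood apart from 3 to 6 hr (51.8% of all probe sets, 23.8% higher and 28.0% lower), 7 from 6 to 12 hr (46.5%, 24.8% higher and 21.7% lower) and 5 from 12 to 24 hr (41.8%, 21.3% higher and 20.4% lower). The choice of the genes used these comparisons, so their counts carry no evidence of their own.

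**Figure D1:**
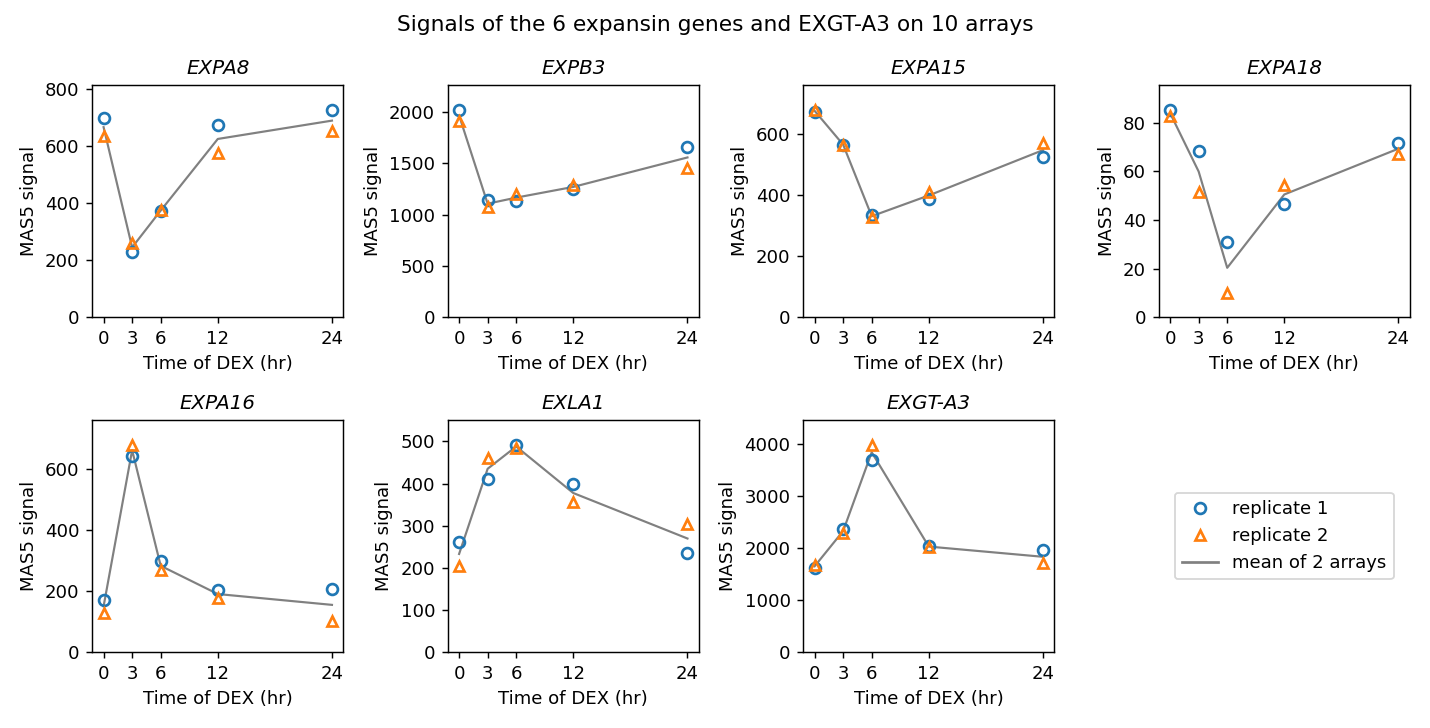
MAS5 signal (linear, vertical axes from 0) against time of DEX in hr for each of the 7 genes. Circles are replicate 1, triangles are replicate 2 and the line joins the means of 2 arrays. EXPA8 and EXPB3 are lowest at 3 hr, EXPA15 and EXPA18 are lowest at 6 hr, EXPA16 is highest at 3 hr, and EXLA1 and EXGT-A3 are highest at 6 hr.

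Among the alpha-expansins, EXPA8 (AT2G40610) was lowest at 3 hr and overlapped with its starting signal from 12 hr on. Its signals were 699 and 635 at 0 hr, 229.7 and 262 at 3 hr, 373 and 377 at 6 hr, 675 and 576 at 12 hr, and 728 and 652 at 24 hr. The arrays at 3 and 6 hr lay below all others, and those at 0, 12 and 24 hr overlapped. The mean at 3 hr, 246 ± 22.9 (SD, n = 2), was 36.9% of that at 0 hr, 667 ± 45.3 (SD, n = 2). On the scale of log2(signal + 16) this was a difference of -1.38 (SE 0.11), followed by 0.58 (SE 0.11) from 3 to 6 hr and 0.71 (SE 0.11) from 6 to 12 hr. Its differences from 0 hr were -0.09 at 12 hr and 0.05 at 24 hr (SE 0.11 each).

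EXPA15 (AT2G03090) reached its lowest signal later than EXPA8 and stayed lower for longer. Its signals were 672 and 679 at 0 hr, 565 and 565 at 3 hr, 335 and 327 at 6 hr, 388 and 409.9 at 12 hr, and 525 and 569 at 24 hr. In order from low to high the times were 6, 12, 24, 3 and 0 hr, and only 24 and 3 hr overlapped. The mean at 6 hr, 331 ± 5.43 (SD, n = 2), was 49.0% of that at 0 hr, with log2 differences from 0 hr of -0.25, -0.99, -0.74 and -0.30 at 3, 6, 12 and 24 hr (SE 0.08 each).

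EXPA18 (AT1G62980), an expansin of root hairs, was lowest at 6 hr, where it lay near background. Its signals were 85.2 and 82.5 at 0 hr, 68.3 and 51.5 at 3 hr, 30.8 and 10.0 at 6 hr, 46.8 and 54.2 at 12 hr, and 71.7 and 66.9 at 24 hr. Both 6 hr arrays lay below every other array and below 44.8, the 30th percentile of mean signal, under which a signal is called near background here. The difference at 6 hr was -1.52 (SE 0.28) on the log2(signal + 16) scale, and it depended on the added offset, at -2.18 with an offset of 1 and -0.82 with an offset of 64. The differences at 3, 12 and 24 hr were -0.40, -0.59 and -0.23 (SE 0.28 each).

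EXPA7, the other expansin known from root hairs, was near background on all 10 arrays, at 1.83 to 21.5. None of the 16 root hair markers had a named probe set. Of the 6 root markers, PYK10, a beta-glucosidase abundant in roots and seedlings, was measured, at 9091 and 9689 at 0 hr and 9146 and 10598 at 6 hr, which overlapped. Whether root tissue had a part in the EXPA18 signal was not tested.

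EXPA16 (AT3G55500) was the alpha-expansin with higher signals. They were 171 and 129.7 at 0 hr, 642 and 679 at 3 hr, 297 and 268 at 6 hr, 204 and 177 at 12 hr, and 207 and 103 at 24 hr. The 3 hr arrays lay above all others, and the 6 hr arrays lay above those of 0, 12 and 24 hr. The 24 hr arrays overlapped with those of 0 hr and of 12 hr, while both 12 hr arrays lay above both 0 hr arrays. The mean signal at 3 hr, 661 ± 26.1 (SD, n = 2), was 4.40-fold that at 0 hr, 150.3 ± 29.0 (SD, n = 2), the largest change of the 7 genes at that time. The log2 difference from 0 hr was 2.04 (SE 0.24) at 3 hr and 0.85 (SE 0.24) at 6 hr, and from 3 to 6 hr it was -1.18 (SE 0.24). The 24 hr replicates lay far apart, and the log2 difference of -0.02 at 24 hr became 0.44 without replicate 2 and -0.48 without replicate 1 of that time.

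EXPB3 (AT4G28250), the beta-expansin of the group, was lower from 3 hr on. Its signals were 2021 and 1911 at 0 hr, 1143 and 1072 at 3 hr, 1131 and 1202 at 6 hr, 1252 and 1290.0 at 12 hr, and 1663 and 1452 at 24 hr. The arrays at 3 and 6 hr overlapped, and from there each later time lay above the one before, with both 24 hr arrays still below both control arrays. The mean at 3 hr, 1107 ± 50.7 (SD, n = 2), was 56.3% of that at 0 hr and the mean at 24 hr was 79.2% of it. The log2 differences from 0 hr were -0.82, -0.75, -0.62 and -0.34 at 3, 6, 12 and 24 hr (SE 0.08 each). From 12 to 24 hr the difference was 0.29 (SE 0.08).

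EXLA1 (AT3G45970), the expansin-like gene, was higher from 3 to 12 hr. Its signals were 262 and 204 at 0 hr, 409.6 and 460.4 at 3 hr, 492 and 483 at 6 hr, 399.8 and 355 at 12 hr, and 235 and 304 at 24 hr. The arrays of 24 hr overlapped with those of 0 hr, and every other time stood apart from its neighbours in the order 0, 24, 12, 3 and 6 hr. The mean at 6 hr, 488 ± 6.37 (SD, n = 2), was 209% of that at 0 hr, 233 ± 41.4 (SD, n = 2). The log2 differences from 0 hr were 0.86, 1.03, 0.67 and 0.20 at 3, 6, 12 and 24 hr (SE 0.15 each). In the TAIR10.1 annotation the nearest protein-coding neighbour of EXLA1 on one side is EXLA3, another expansin-like A gene, whose signals of 10.4 to 36.9 were near background on all 10 arrays. The third gene of that subfamily, EXLA2, had a mean of 91.1 at 0 hr and 141 at 6 hr and did not pass the test at 6 hr (log2 difference 0.55, SE 0.31, adjusted p = 0.336, limma).

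EXGT-A3 (AT2G01850), the xyloglucan transferase gene, was higher on both arrays of every DEX time than on both control arrays. Its signals were 1619 and 1685 at 0 hr, 2374 and 2285 at 3 hr, 3694 and 3989.6 at 6 hr, 2034 and 2027 at 12 hr, and 1956 and 1711 at 24 hr. The order from low to high was 0, 24, 12, 3 and 6 hr, with no overlap between neighbours. The mean at 6 hr, 3842 ± 209 (SD, n = 2), was 2.33-fold that at 0 hr, 1652 ± 46.8 (SD, n = 2). On the log2 scale it stood 0.49 above 0 hr at 3 hr and 1.21 above it at 6 hr, then changed by -0.91 from 6 to 12 hr (SE 0.08 each). At 12 and 24 hr the differences from 0 hr were 0.30 and 0.15 (SE 0.08 each).

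**Figure D2:**
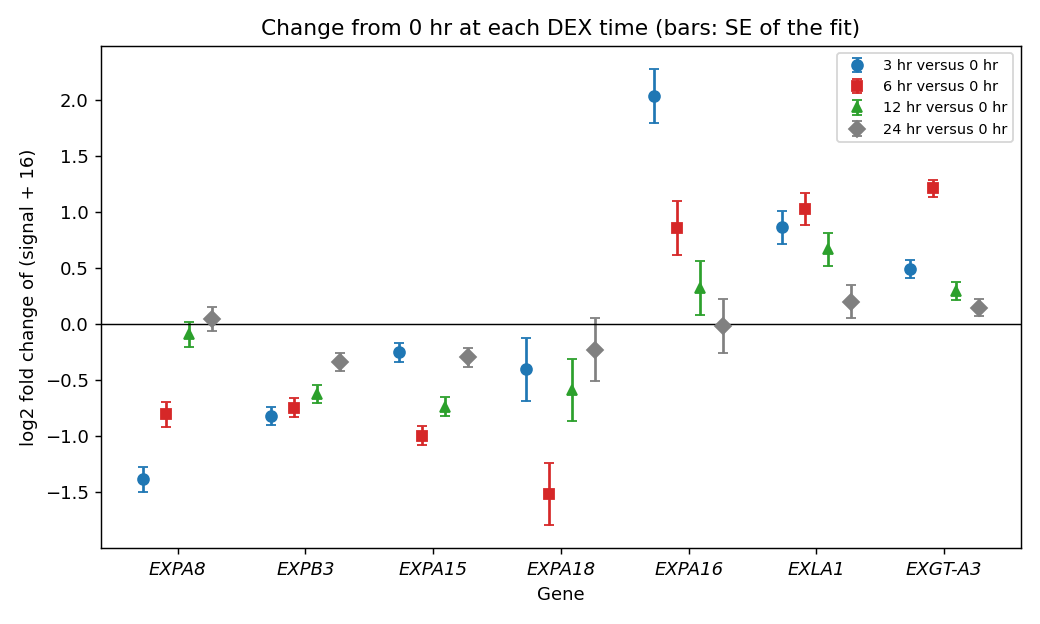
Log2 fold change of signal + 16 from 0 hr (vertical axis) for the 7 genes (horizontal axis) at 3, 6, 12 and 24 hr of DEX, with the SE of the fit as bars. EXPA16 stands highest at 3 hr with 2.04, EXGT-A3 highest at 6 hr with 1.21, and the 24 hr values lie between -0.34 and 0.20.

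The times at which the genes were farthest from 0 hr thus fell at 3 hr for EXPA8, EXPB3 and EXPA16 and at 6 hr for EXPA15, EXPA18, EXLA1 and EXGT-A3. For EXPB3 and EXLA1 the 3 hr and 6 hr values were close, at -0.82 and -0.75 for EXPB3 and at 0.86 and 1.03 for EXLA1. Each of the 7 genes was nearer to its 0 hr signal at 24 hr than at 6 hr. The median of the 7 log2 differences at 3, 6, 12 and 24 hr was -0.25, -0.75, -0.09 and -0.02, beside -0.03, -0.05, -0.03 and -0.03 over all probe sets. At 3 and 6 hr the set joined 4 lower and 3 higher genes. Each median is thus the value of the middle gene, EXPB3 at 6 hr, and describes no shared direction. The genes were picked with these signals known, so setting their medians beside all probe sets carries no evidence of a group shift.

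The other measured genes of both families are those left after the 7 genes, picked with their signals known, were taken out. That choice shaped what was left, so their counts and medians do not stand for the whole families. They were tested with limma over all probe sets. Of 30 further expansin genes 12 had a named probe set, 6 of them with a mean signal above the 30th percentile, and of 32 further XTH genes 9 had one, 5 of them above it. At 3 hr 2 of these 21 genes passed, both lower, where 8.22% of all probe sets passed, 3.91% higher and 4.31% lower. With the arrays set to one median, that overall split was 1181 higher and 690 lower in place of 890 and 980. EXPA4, an alpha-expansin, fell from 1567 to 1135 (log2 fold change -0.46, SE 0.07, adjusted p = 0.00278). EXLB1, an expansin-like B gene, fell from 1073 to 749 (log2 fold change -0.51, SE 0.08, adjusted p = 0.00291). Both calls held in each of the 10 fits without 1 array. The other 19 genes did not pass at 3 hr.

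At 6 hr 5 of the 21 genes passed, where 9.36% of all probe sets did (5.17% higher and 4.19% lower). EXPA4 fell to 1016 (log2 fold change -0.62, SE 0.07, adjusted p = 0.000308, limma), EXPB1, a beta-expansin, from 141 to 81.7 (log2 fold change -0.68, SE 0.17, adjusted p = 0.0302), and EXLB1 to 864 (log2 fold change -0.31, SE 0.08, adjusted p = 0.0379). XTH16 rose from 505 to 777 (log2 fold change 0.60, SE 0.10, adjusted p = 0.003) and XTH19 from 217 to 323 (log2 fold change 0.54, SE 0.12, adjusted p = 0.0136). The 3 expansin genes that passed were lower and the 2 XTH genes that passed were higher. This difference between the families was not tested. With no intensity trend the EXLB1 call was lost and the count of 5 was 4. Leaving out 0 hr replicate 1 took the count of 5 to 3, and leaving out 0 hr replicate 2 or either 6 hr array took it to 2. Without 1 array at a time EXPA4 and XTH16 passed in each of the 10 fits, whereas EXLB1 was lost in 6, EXPB1 in 4 and XTH19 in 3.

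At 12 and 24 hr 0 of the 21 genes passed by limma, with 3 and 4 at an unadjusted p below 0.05, where 1.6% (1.27% higher and 0.33% lower) and 0.958% (0.717% higher and 0.242% lower) of all probe sets passed. The same count of 0 was found under each other offset, scaling, filter and variance setting at these 2 times. The median log2 difference of the 21 genes at 3, 6, 12 and 24 hr was -0.08, 0.04, 0.00 and -0.01. Over all probe sets it was -0.03, -0.05, -0.03 and -0.03. The value for the 21 genes joins 2 families with medians of opposite sign. It was -0.26, -0.24, -0.17 and -0.13 for the 12 expansins and 0.08, 0.08, 0.11 and 0.13 for the 9 XTH genes. This difference in medians was not tested. The expansin medians leave out EXPA16 and EXLA1, which were higher, and EXPA8, EXPA15, EXPA18 and EXPB3, which were lower. The XTH medians leave out EXGT-A3, which was higher. Only 6 of the 12 expansins and 5 of the 9 XTH genes had a mean signal above the 30th percentile.

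**Figure D3:**
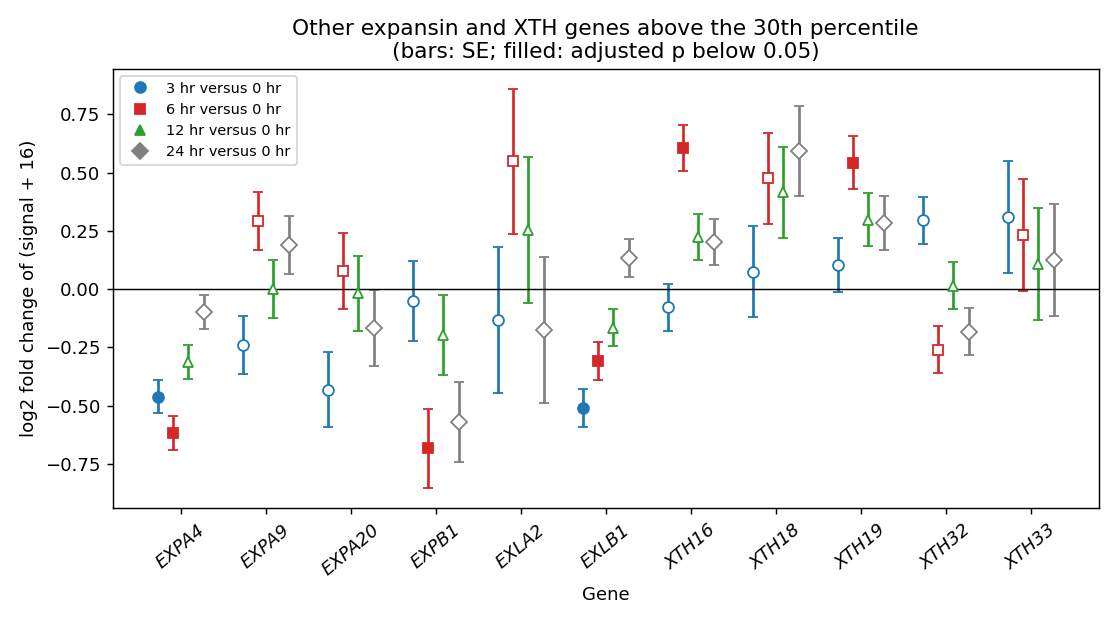
Log2 fold change of signal + 16 from 0 hr at 3, 6, 12 and 24 hr (vertical axis) for the 11 other expansin and XTH genes with a mean signal above the 30th percentile (horizontal axis). Bars are the SE of the fit and filled symbols have an adjusted p below 0.05; EXPA4 and EXLB1 are filled below 0 at 3 and 6 hr, EXPB1 below 0 at 6 hr, and XTH16 and XTH19 above 0 at 6 hr.

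From 3 to 6 hr 5 of the 21 genes passed, where 9.14% of all probe sets did, 5.16% higher and 3.99% lower. With the arrays set to one median, the overall split was 958 higher and 1349 lower in place of 1173 and 907. XTH16 rose by 0.68 (SE 0.10, adjusted p = 0.00145, limma), EXPA9, an alpha-expansin, by 0.53 (SE 0.12, adjusted p = 0.0225) and XTH19 by 0.44 (SE 0.12, adjusted p = 0.0378) on the log2 scale, while XTH32 fell by 0.56 (SE 0.10, adjusted p = 0.00585) and EXPB1 by 0.63 (SE 0.17, adjusted p = 0.0424). Without 1 array at a time the XTH16 call held in each of the 10 fits, whereas EXPB1 was lost in 8, XTH19 in 6, EXPA9 in 4 and XTH32 in 2. The EXPB1 call was also lost with the replicate block, the XTH19 call when arrays were set to one median or quantile normalized, and those of EXPA9, XTH19 and XTH32 with no intensity trend. The count of 5 was 1 without 3 hr replicate 1 or 6 hr replicate 1, 2 without 3 hr replicate 2 or 6 hr replicate 2, 3 without either 12 hr array, and 2 with a variance model that has no intensity trend. From 6 to 12 hr and from 12 to 24 hr 0 of the 21 passed by limma, with 5 and 2 at an unadjusted p below 0.05, where 2.39% (0.712% higher and 1.68% lower) and 0.114% (0.022% higher and 0.0923% lower) of all probe sets passed. The first of these counts was 1 after quantile normalization and 1 without the lowest 30% of probe sets.

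Other genes of wall polymers gave both directions at 6 hr. Of 135 genes for pectin enzymes and inhibitors 7 were measured, 5 of them with a mean signal above the 30th percentile. Of the 7 measured genes 2 rose at 6 hr and 5 did not pass, where 5.17% of all probe sets were called higher. ATPMEPCRB, a pectin methylesterase gene also named PME41, went from 156 to 335 (log2 fold change 1.04, SE 0.13, adjusted p = 0.000599, limma) and PMEPCRF, another pectin methylesterase gene, from 629 to 956 (log2 fold change 0.60, SE 0.10, adjusted p = 0.00454). Pectin methylesterases remove methyl groups from pectin in the wall. ATPMEPCRB was still higher at 12 hr, by 0.78 (SE 0.13, adjusted p = 0.0157), a call lost without 0 hr replicate 2, without either 12 hr array and with no intensity trend. The median of the log2 differences of these 7 genes at 6 hr was 0.21, beside -0.05 over all probe sets. From 3 to 6 hr 2 of the 7 were called higher by limma, where 5.16% of all probe sets were. ATPMEPCRB rose by 1.07 on the log2 scale and PMEPCRF by 0.50. The PMEPCRF call was lost in 4 of the 10 fits without 1 array and with no intensity trend.

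Of 15 measured genes for GH9 endoglucanases, enzymes that cut glucan chains, 7 had a mean signal above the 30th percentile and the others were near background. By the test 2 of the 15 were lower at 6 hr and the other 13 did not pass. Of all probe sets 9.36% passed and 4.19% were called lower. Their median log2 difference at 6 hr was -0.23. GH9C2 went from 1429 to 728 (log2 fold change -0.96, SE 0.09, adjusted p = 4e-05, limma) and was still lower at 12 hr, by -0.66 (SE 0.09, adjusted p = 0.00265), a call lost with no intensity trend. At 24 hr GH9C2 stood at -0.46 (SE 0.09, adjusted p = 0.034), a call lost in 8 of the 10 fits without 1 array and with no intensity trend. GH9B12 went from 112 to 61.3 at 6 hr (log2 fold change -0.73, SE 0.19, adjusted p = 0.0349), a call lost in 6 of those fits. At 3 hr GH9B13 fell from 446 to 273 (log2 fold change -0.68, SE 0.12, adjusted p = 0.00547), a call lost without 0 hr replicate 1, and GH9B16 rose from 6.03 to 34.3, both near background (adjusted p = 0.00983), a call lost without 0 hr replicate 1 or 3 hr replicate 2. From 3 to 6 hr 1 of the 15 was called lower, GH9C2 with a log2 difference of -0.74. GH9B13 was the 1 called higher, by 0.58, a call lost in 2 of the 10 fits without 1 array and with no intensity trend. Of all probe sets 9.14% passed from 3 to 6 hr. The GH9B13 signals were 466 and 426 at 0 hr and 466 and 372 at 6 hr, which overlapped.

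Of 8 measured cellulose synthase-like genes 3 rose at 6 hr and 5 did not pass, where 5.17% of all probe sets were called higher. Their median log2 difference was 0.33. CSLA03 went from 276 to 483 (log2 fold change 0.77, SE 0.19, adjusted p = 0.0302, limma), CSLC4, which makes the glucan backbone of xyloglucan, from 819 to 1124 (log2 fold change 0.45, SE 0.13, adjusted p = 0.0497), and CSLD2 from 324 to 426 (log2 fold change 0.38, SE 0.10, adjusted p = 0.0469). The calls of CSLA03 and CSLC4 were each lost in 6 of the 10 fits without 1 array and that of CSLD2 in 8, and all 3 were lost with no intensity trend. Those of CSLC4 and CSLD2 were also lost after quantile normalization and with the replicate block, that of CSLC4 with an offset of 64, and that of CSLD2 when arrays were set to one median. COB, needed for oriented cellulose deposition, went from 1919 to 2262 and did not pass (adjusted p = 0.0863). From 3 to 6 hr 1 of the 8 cellulose synthase-like genes was called higher by limma, where 5.16% of all probe sets were. It was CSLA03, with a log2 difference of 0.85, a call lost in 2 of the 10 fits without 1 array and with no intensity trend. No probe set was named for the plasma membrane proton pumps, the SAUR genes or the brassinosteroid genes looked for, so they are not analysed here.

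**Figure D4:**
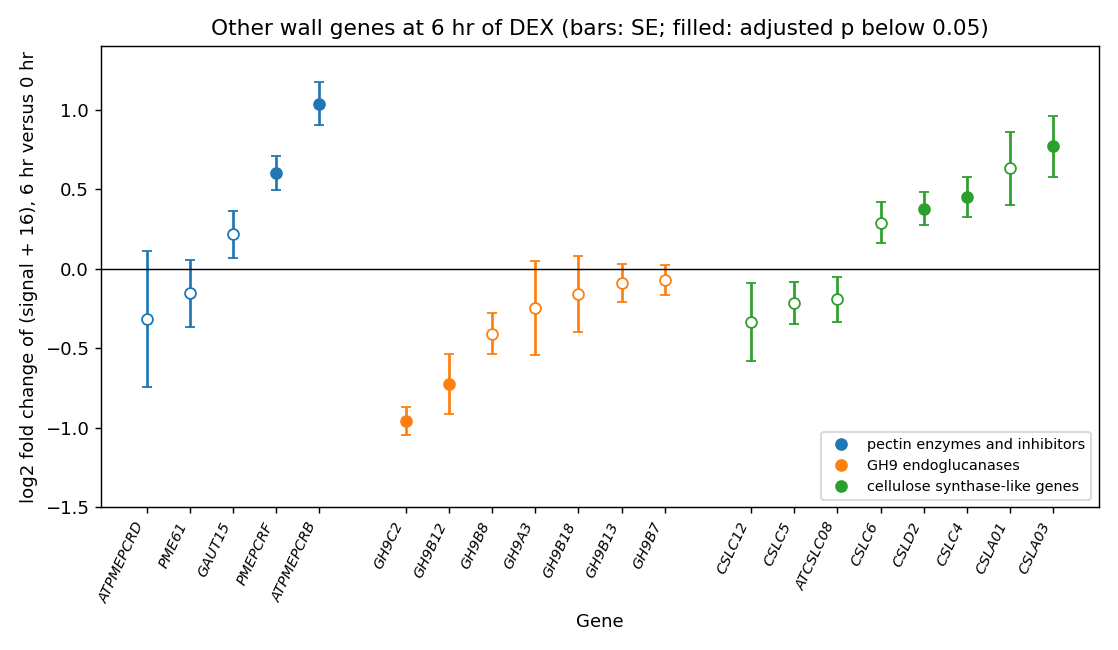
Log2 fold change of signal + 16 at 6 hr versus 0 hr (vertical axis) for genes of pectin enzymes, GH9 endoglucanases and cellulose synthase-like proteins with a mean signal above the 30th percentile (horizontal axis). Bars are the SE of the fit and filled symbols have an adjusted p below 0.05; ATPMEPCRB lies highest at 1.04 and GH9C2 lowest at -0.96.

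For each of the 7 genes, the 2 genes with the most similar course were sought among 8655 other named genes above the 30th percentile, by Pearson correlation of log2(signal + 16) over the 10 arrays. The arrays come in 5 pairs of replicates, and the correlations, from 0.943 to 0.981, are a description. EXPA8 was most like AT4G19430 (0.979), whose mean signal was 1353 at 0 hr and 306 at 3 hr, and AT1G67860 (0.978). EXPB3 was most like AT1G18060 (0.981), with means of 2873 at 0 hr and 1805 at 3 hr, and AT1G05720 (0.977).

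EXPA15 was most like AT4G35720 (correlation 0.970) and AT4G29030 (0.967), the latter with means of 1465 at 0 hr and 807 at 6 hr. EXPA18 was most like AT3G17680 (0.965) and AT1G09520 (0.943), whose relative changes were smaller, with means of 451 at 0 hr and 313 at 6 hr for AT3G17680. EXPA16 was most like AT5G47330 (0.971) and AT5G02940 (0.970), the latter with means of 987 at 0 hr and 2359.6 at 3 hr. EXLA1 was most like AT3G10810 (0.957) and AT4G20830 (0.956), the latter with means of 321 at 0 hr and 750.2 at 6 hr. EXGT-A3 was most like AT1G30820 (0.973), with means of 401 at 0 hr and 694 at 6 hr, and AT1G27300 (0.966).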

How the data were processed

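The authors deposited linear MAS5 signals, an intensity for each probe set on each array. The submitters' processing notes name Expression Console 1.1; how background was corrected is not given in the sources used here. After trimming 2% of values at either end, every array had a mean of 500.0. Of 22810 probe sets 64 controls were left out, which left 22746 for testing. Of these, 13513 had 1 gene in the probe table, 503 had several and 8730 were not listed; symbols and loci came from TAIR10.1.

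The log2(signal + 16) values were fitted in R 4.3.3 by limma 3.58.1, with 1 mean per time over all 10 arrays, an intensity trend, 5 residual degrees of freedom, two-sided tests and p-values adjusted by Benjamini-Hochberg over every probe set tested (threshold 0.05). Fold changes of low signals are understated on this scale. The procedure was run on simulated data, drawn with independent normal noise from the spread that the fit itself estimated. Such data meet the assumptions of the fit, so the run cannot show how it performs on real arrays. Same-numbered replicates did not deviate together (correlations from -0.036 to 0.088), so no block was used.

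The 7 genes and the gene lists were chosen with earlier results of these data known; lists for GH9 and cellulose synthase-like genes were added after the names in the probe table were seen, and 6 genes matched by letters only were removed. The rule named each called gene of the 2 families up to 4 per comparison, up to 2 per other list, and 2 genes per member by correlation; CSLD2, EXPA7, EXLA2, EXLA3 and COB were named after their values were seen. Of 489 list loci 56 had a named probe set. Alternatives were other offsets, scalings, a filter on low signals, no trend, a replicate block and leaving out each array. The number of arrays limits precision.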

Additional observations from a re-analysis of the deposited data

Results flagged for a closer look

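EXPA9, XTH32 and EXLB1 had both arrays of one DEX time above, and both arrays of another below, the 2 control arrays. They were found among the 7 genes and the 11 other family genes above the 30th percentile. The share of all probe sets with this pattern was not counted, so it is not shown to be particular to these genes. At a single DEX time 42.6% to 53.0% of all probe sets stood apart from the controls in either direction. EXPA9 had signals of 285 and 256 at 0 hr, 216 and 237 at 3 hr, 312 and 358 at 6 hr, and 333 and 289 at 24 hr. Its log2 difference from 0 hr was 0.53 higher at 6 hr than at 3 hr, which passed by limma (adjusted p = 0.0225) but was lost without any 1 of the 4 arrays compared and with no intensity trend, and 0.43 higher at 24 hr than at 3 hr, which was not tested.

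XTH32 had signals of 1006 and 1132 at 0 hr, 1399 and 1234 at 3 hr, and 871 and 906 at 6 hr. Its difference from 0 hr changed by -0.56 from 3 to 6 hr (adjusted p = 0.00585, limma), a call lost without 3 hr replicate 1, without 6 hr replicate 1 and with no intensity trend.

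EXLB1 had signals of 1074 and 1073 at 0 hr, 727 and 770.4 at 3 hr, 852 and 875 at 6 hr, 978 and 934 at 12 hr, and 1101 and 1263 at 24 hr. Its log2 difference from 0 hr was higher at 24 hr than at 3 hr by 0.64 and than at 6 hr by 0.44, neither of which was tested, and than at 12 hr by 0.30, which did not pass (adjusted p = 0.241, limma).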

How the results depend on the processing

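Of 833 values of the 7 genes under the alternatives, 26 moved by more than the SD between replicates, 21 of them with another offset and 5 with another scaling. Of the 26, 11 concerned EXPA18 and 10 EXPA15. The replicates of EXPA15 lay close together, with a signal SD of 0.04 at 3 hr, so small moves can exceed its SD. With all arrays kept, its log2 difference ran from -0.26 to -0.20 at 3 hr and from -1.04 to -0.90 at 6 hr. That of EXPA18 at 6 hr ran from -2.18 to -0.82. The sign changed in 6 of the 833, all of them differences of EXPA8 at 12 or 24 hr or of EXPA16 at 24 hr (against 0 or 12 hr) when 1 array was left out. Counts of probe sets called fell without an intensity trend, to 937, 1216, 129 and 58 at 3, 6, 12 and 24 hr against 0 hr, and to 1099 from 3 to 6 hr, 177 from 6 to 12 hr and 1 from 12 to 24 hr, where the count was 26. Without the lowest 30% of probe sets, where fewer were tested, they were 556 at 12 hr, 391 at 24 hr and 50 from 12 to 24 hr. With 1 array left out they ran from 866 to 2035, 989 to 2297, 102 to 414 and 70 to 192 at the 4 DEX times, and from 959 to 2245, 146 to 591 and 2 to 65 between successive times. A time left with 1 array was assumed to vary like the others. The replicate block gave 14 probe sets from 12 to 24 hr and moved no other such count by more than 1.5 times; the replicates share only a number. Of the 21 other family genes, 2 passed from 3 to 6 hr with no intensity trend, and from 6 to 12 hr 1 passed after quantile normalization and 1 without the lowest 30%. With 1 array left out 2 to 5 passed at 6 hr and 1 to 5 from 3 to 6 hr. The cause of these moves was not tested.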
